A study of Mus musculus with 6 samples.

Results

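The 10 genes described here, Vegfa, Adm, Slc2a1, Ldha, Pgk1, Pdk1, Egln3, Bnip3, Ankrd37 and Car9, are genes whose transcripts rise when cells lack oxygen or turn to glycolysis. They were found by symbol in the gene table, where all 10 of 10 were present among 24532 genes, and all 10 passed the filters on low counts in every comparison of counts. The group was put together with earlier results of these libraries known, and its members were selected on comparisons of the counts between these same libraries, so its values are given as a description and support no test. The RNA came from mice at PN1, the first day after birth, and was sequenced in bulk in 6 libraries, 2 of Ahnak KO and 2 of WT kidney, and 1 of each genotype of ureter. Ahnak KO mice carry a disruption of exon 5 of Ahnak, which encodes a very large scaffold protein, WT mice carry the intact gene, and no group was treated. By the methods each extraction started from 2 to 4 organs and there were 2 biological replicates, with no word on which tissue this holds for or whether replicates came from separate litters, and the titles of both ureter samples name the kidney while their tissue labels name the ureter.

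Cells sense oxygen through prolyl hydroxylases, which mark the alpha subunits of hypoxia-inducible factor (HIF) for destruction as long as oxygen is present. When oxygen falls the alpha subunit is kept, pairs with its beta partner Arnt and binds short DNA elements whose core is ACGTG or GCGTG, from which genes for glucose uptake, glycolysis, blood vessel growth and the removal of mitochondria are switched on. In the kidney, where oxygen delivery differs between cortex and medulla, this pathway is known for vessel growth during development and for the control of erythropoietin.

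The promoters of 4 members are printed because they belong to the member that varied most between libraries (Ankrd37), the members with the highest level per length (Ldha and Pgk1) and the member with the most core matches after Ldha (Bnip3). Each run is the 250 bases before a RefSeq transcript start in GRCm38.p6, read 5′ to 3′ on the strand of the gene, with each ACGTG or GCGTG, on either strand, in capitals. A core on the opposite strand reads CACGT in this notation if it is the first of the pair, and CACGC if it is the second. The word CACGTG holds the first core on both strands, and both were counted. The windows lie at chr8:45999851-46000100 (minus strand) for Ankrd37, chr7:138909507-138909756 (minus strand) for Bnip3, chr7:46845554-46845803 (plus strand) for the first of 2 starts of Ldha and chrX:106186850-106187099 (plus strand) for Pgk1.
Ankrd37: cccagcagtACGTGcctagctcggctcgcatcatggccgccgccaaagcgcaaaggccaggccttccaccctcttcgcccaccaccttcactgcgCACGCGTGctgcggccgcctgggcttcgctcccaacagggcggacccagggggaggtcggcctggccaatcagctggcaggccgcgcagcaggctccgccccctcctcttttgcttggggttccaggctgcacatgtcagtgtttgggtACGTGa
Bnip3: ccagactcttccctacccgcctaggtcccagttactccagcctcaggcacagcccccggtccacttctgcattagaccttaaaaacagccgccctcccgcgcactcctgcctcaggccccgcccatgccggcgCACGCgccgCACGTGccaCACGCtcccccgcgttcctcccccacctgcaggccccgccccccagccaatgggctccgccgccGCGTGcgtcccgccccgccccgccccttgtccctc
Ldha: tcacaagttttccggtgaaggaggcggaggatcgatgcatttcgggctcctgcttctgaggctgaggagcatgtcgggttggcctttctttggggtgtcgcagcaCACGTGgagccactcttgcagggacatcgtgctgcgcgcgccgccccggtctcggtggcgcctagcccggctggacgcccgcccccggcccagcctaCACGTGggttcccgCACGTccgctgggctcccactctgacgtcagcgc
Pgk1: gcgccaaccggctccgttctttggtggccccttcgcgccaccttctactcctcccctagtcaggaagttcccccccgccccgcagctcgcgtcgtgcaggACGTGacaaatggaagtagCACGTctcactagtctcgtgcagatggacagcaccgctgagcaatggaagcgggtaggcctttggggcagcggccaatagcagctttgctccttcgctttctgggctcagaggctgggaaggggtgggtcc
Ldha held 5 ACGTG matches in these bases, of which 4 form a pair of CACGTG words. Bnip3 held 2 ACGTG matches, both within 1 CACGTG, and 3 GCGTG matches. Ankrd37 held 2 of each core, with its GCGTG matches overlapping on opposite strands. Pgk1 held 2 ACGTG matches and no GCGTG. Over the full windows of 300 bases, which run on 50 bases past the start, RefSeq gave 13 windows for the 10 members. ACGTG stood in 8 of the 13, against 19.6% of the 32851 windows of all genes. GCGTG stood in 8 of the 13, against 32.4% of all windows, and either core in 11 of the 13, against 43.8%. Counted by gene, all 10 members had either core in at least 1 window, as did 46.7% of 27025 genes. The windows without a match were 1 of 2 for Vegfa and 1 of 2 for Pdk1. The Vegfa window without one lay just before the gene span given below, and the Vegfa window with matches lay inside that span. The windows of Ankrd37 and Ldha also lay inside their gene spans. A match of letters is a description and not a measured binding site.

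In the GENCODE annotation of GRCm38 the protein-coding genes on the plus strand are Slc2a1 at chr4:119108711-119137983, Pgk1 at chrX:106187100-106203699 and Ldha at chr7:46841475-46855627, with Pdk1 at chr2:71873224-71903858, Adm at chr7:110627661-110629820 and Car9 at chr4:43506966-43513729. On the minus strand are Vegfa at chr17:46016993-46032369, Egln3 at chr12:54178981-54203860, Ankrd37 at chr8:45996902-46005707 and Bnip3 at chr7:138890836-138909519.

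The libraries held between 36410246 counts (ureter labelled Ahnak KO) and 66095616 counts (WT kidney replicate 1), and 3 counts were equal to between 0.0454 and 0.0824 counts per 1e6 (CPM). The level of Ahnak in TPM, a unit per transcript length, was 20.6 and 22.1 in the Ahnak KO kidneys and 27.7 and 24.7 in the WT kidneys, and 88.0 in the ureter labelled Ahnak KO against 77.5 in the WT ureter. The table sums reads over the whole gene, so this checks the labels only in part, and in ureter the TPM went against the label. As a share of the counts, however, Ahnak was lower in the ureter labelled Ahnak KO. It had 18895 of 36410246 counts there and 37439 of 54985927 in the WT ureter. The ribosomal RNA gene Rn45s took 8.06% of the counts in the ureter labelled Ahnak KO and 0.496% to 0.632% elsewhere. Xist, expressed from the inactive X chromosome of females, had 176348 counts in Ahnak KO kidney replicate 1 and 17 to 36 elsewhere, and Pgk1 is X-linked. Most markers matched the tissue labels. The summed TPM of 10 urothelium markers was 10077 and 10186 in the ureters and 116 to 134 in the kidneys. The sum of 10 proximal tubule markers was 186 and 149 TPM in the ureters and 563 to 797 TPM in the kidneys. Of these, 5 were listed at 0 in both ureters and in no kidney. By edgeR's test 9 of the 10 were lower in ureter and 1 was higher (log2 fold change 0.76).

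Among the members Ldha, the muscle-type subunit of lactate dehydrogenase, had the highest level, with 936 ± 337 TPM (SD, n = 4 kidney libraries). Pgk1, a kinase that makes ATP in the middle of glycolysis, followed with 527 ± 112 TPM. Next came Vegfa, the main growth factor of endothelial cells, with 168 ± 36.4 TPM, and Bnip3, a mitochondrial outer membrane protein that marks mitochondria for removal, with 111 ± 41.3 TPM. Across the kidney libraries the ranges of Ldha and Pgk1 overlapped, as did those of Vegfa and Bnip3. Within each kidney library, however, Ldha stood above Pgk1, Pgk1 above Vegfa and Vegfa above Bnip3. Slc2a1, the basal glucose transporter, had 79.3 ± 25.8 TPM and Pdk1, a kinase that switches off pyruvate dehydrogenase, 44.7 ± 19.8 TPM. Egln3, an oxygen-dependent prolyl hydroxylase that is itself a HIF target, had 25.6 ± 8.0 TPM. The ankyrin repeat gene Ankrd37 had 21.5 ± 18.5 TPM, the widest spread for its level. The peptide adrenomedullin, encoded by Adm, relaxes vessels and is needed for lymphatic growth, and Adm had 8.84 ± 2.93 TPM. Car9, a carbonic anhydrase of the cell surface, was the lowest with 0.671 ± 0.147 TPM, on 30 to 49 counts per kidney library. From Bnip3 down to Adm the range of each gene over the kidney libraries overlapped that of its neighbours. Within each kidney library the order from Bnip3 through Slc2a1 and Pdk1 to Egln3 was the same. Ankrd37 stood above Egln3 in WT replicate 2 and below Adm in WT replicate 1. Car9 lay below Adm in every library. The order differed between the ureters, and neither had that of the kidney means. In the WT ureter Adm (53.6 TPM) stood at rank 6, above Pdk1 (51.8), and in the ureter labelled Ahnak KO Bnip3 (60.4) stood above Vegfa (55.2), Pdk1 (29.4) above Slc2a1 (27.0) and Car9 (4.45) above Ankrd37 (2.78). In bulk tissue, fewer cells of a type and less RNA per cell cannot be told apart.

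**Figure D1:**
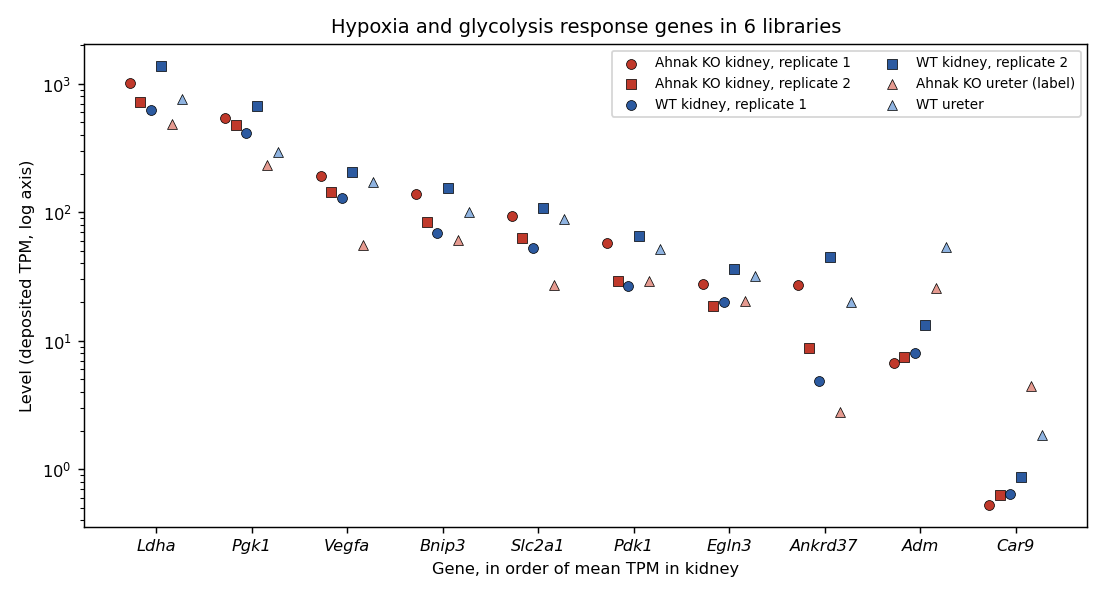
Level of each member in the 6 libraries, as deposited TPM on a log axis, with 1 point per library and no error bars. Within each genotype the kidney replicates lie apart for most members (Ankrd37 runs from 4.91 to 45.2 TPM), and Adm and Car9 are higher in both ureters than in every kidney.

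Between genotypes in kidney the libraries of 9 of the 10 members overlapped in CPM, and no member passed the test. Vegfa had 191 and 144 TPM in Ahnak KO replicates 1 and 2 and 130 and 206 TPM in WT replicates 1 and 2. The genotypes overlapped, with the lowest and the highest library both WT, and the log2 fold change of Ahnak KO over WT (from CPM, edgeR) was -0.09 (SE 0.24). Adm had 6.73 and 7.48 TPM in Ahnak KO and 7.98 and 13.2 TPM in WT. Each Ahnak KO library lay below each WT library, the nearest by little, and the log2 fold change was -0.54 (SE 0.31). Adm was the only member whose genotypes did not overlap in CPM, where 12.9% of the 16481 genes tested were likewise lower in both Ahnak KO libraries and 13.2% were higher in both. Car9 did not overlap in TPM (0.529 and 0.634 in Ahnak KO, 0.642 and 0.878 in WT) but did in CPM.

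The glucose and glycolysis genes showed the same overlap. Slc2a1 had 93.2 and 62.7 TPM in Ahnak KO and 53.0 and 108 TPM in WT kidneys, with a log2 fold change of -0.02 (SE 0.34). Ldha had 1016 and 724 TPM in Ahnak KO and 626 and 1377 TPM in WT, with a log2 fold change of -0.18 (SE 0.35). For both genes the WT libraries enclosed the Ahnak KO libraries. Pgk1 had 542 and 476 TPM in Ahnak KO against 413 and 676 TPM in WT, and Pdk1 57.6 and 29.1 against 26.6 and 65.6 TPM. Egln3 had 27.9 and 18.5 TPM against 20.2 and 35.9 TPM, and Bnip3 138 and 84.4 TPM against 68.7 and 154 TPM. Except for Egln3, whose lowest library was Ahnak KO, these too had their lowest and highest kidney libraries in WT. Ankrd37 had 27.0 and 8.81 TPM in Ahnak KO and 4.91 and 45.2 TPM in WT, a range within WT that took in both Ahnak KO libraries, and its log2 fold change was -0.47 (SE 0.96). Over the 10 members the log2 fold changes ran from -0.54 to 0.02 with a median of -0.13, 9 below and 1 above 0, against a median of -0.00 over all genes tested, of which 51.1% were below 0. The split was 6 below and 4 above 0 with a replicate block, and 6 and 3 with limma on log2(FPKM + 1), where Car9 was not tested. By edgeR's quasi-likelihood test 0 of the 10 members passed an adjusted p of 0.05, where 2 of 16481 genes (0.0121%) did. At an unadjusted p under 0.05 the count was also 0 of 10, and DESeq2 gave 0 of 10 by both. The median turned to 0.05 without Ahnak KO replicate 2 and to 0.42 without WT replicate 2, and was -0.37 without Ahnak KO replicate 1 and -0.56 without WT replicate 1.

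The larger differences lay between replicates of a genotype. In WT kidney all 10 members were higher in replicate 2 than in replicate 1, where 49.5% of genes were. Ankrd37 was 7.67-fold higher in WT replicate 2. Pdk1 was 2.45-fold higher, Bnip3 2.23-fold, Ldha 2.19-fold and Slc2a1 2.03-fold, and these 5 were the members past 2-fold, where 0.983% of genes were. The rest were between 1.20-fold (Car9) and 1.77-fold (Egln3). In Ahnak KO kidney 8 members were higher in replicate 1 than in replicate 2 (47.9% of genes), namely all but Adm and Car9. Ankrd37 was again the farthest apart, 2.70-fold, and the only member past 2-fold (1.09% of genes), followed by Pdk1 (1.88-fold) and Bnip3 (1.56-fold). The same 8 members thus went up within both pairs, where 30.2% of genes did, and were higher in both Ahnak KO replicate 1 and WT replicate 2 than in either of the other kidney libraries, which held for 24% of genes. The direction in which each pair is given here was chosen after the values were seen, and single libraries allow no test. Set by number, Ahnak KO over WT was above 0 for 8 members among the libraries numbered 1 (median log2 ratio 0.58) and below 0 for all 10 among the libraries numbered 2 (median -0.76), where 51.5% and 49.2% of genes were below 0. Among the latter Pdk1 and Ankrd37 were lower by more than 2-fold, where 1.04% of genes were.

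**Figure D2:**
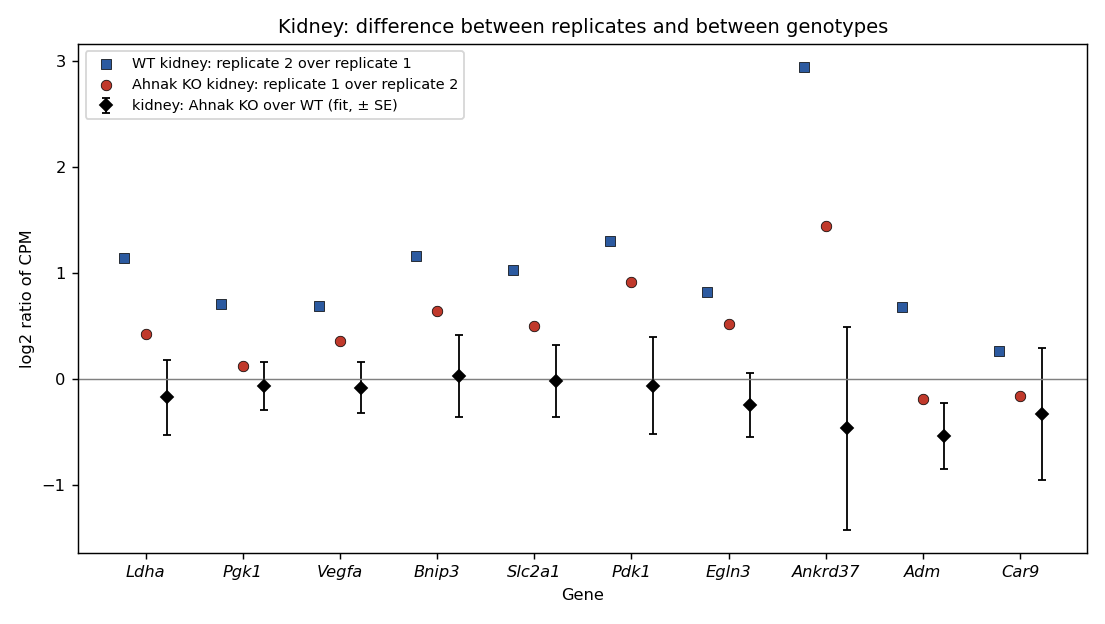
Log2 ratio of CPM in kidney for each member between the replicates of WT (squares) and of Ahnak KO (circles), and between genotypes from the fit to 4 libraries (diamonds, bars are ± SE). For the 8 members from Ldha to Ankrd37 both replicate ratios lie above 0, while the genotype values run from -0.54 (Adm) to 0.02 (Bnip3) over all 10.

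Other genes moved between the replicates together with the members. Over all genes tested, 49.5% were higher in WT replicate 2 than in WT replicate 1 and 47.9% in Ahnak KO replicate 1 than in replicate 2. Of 29 further glycolysis genes, 25 were higher in WT replicate 2 (median log2 ratio 0.35) and 22 in Ahnak KO replicate 1 (median 0.23). Slc16a3, which exports lactate, had 25.4 and 6.52 TPM in Ahnak KO and 5.53 and 38.6 TPM in WT kidneys, the pattern of Ankrd37. Of 37 further hypoxia targets tested, 29 were higher in WT replicate 2 (median 0.37) and 26 in Ahnak KO replicate 1 (median 0.19). The lists share 4 genes (Hk2, Pfkfb3, Pfkfb4 and Slc2a3), so they are not separate evidence. P4ha1, a prolyl hydroxylase of collagen, had 68.9 and 42.0 TPM in Ahnak KO and 21.8 and 97.8 TPM in WT. Narf had 46.7 and 21.5 TPM against 20.3 and 48.4 TPM, and Tfrc, the transferrin receptor for iron uptake, 75.2 and 41.9 TPM against 41.0 and 85.8 TPM. All 4 genes were high in Ahnak KO replicate 1 and WT replicate 2. A few listed genes stood the other way round. Hmox1, which breaks down heme, had 26.3 and 157 TPM in Ahnak KO and 133 and 31.2 TPM in WT. Angptl4, an inhibitor of lipoprotein lipase, had 4.87 and 24.3 TPM against 22.2 and 10.2 TPM, and Pdk4, which like Pdk1 switches off pyruvate dehydrogenase, 5.98 and 20.2 TPM against 14.6 and 6.40 TPM. These 3 were low in the libraries in which the members were high.

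In the HIF machinery the medians lay below 0 in both pairs. Of 16 genes tested, 5 were higher in WT replicate 2 (median -0.14) and 7 in Ahnak KO replicate 1 (median -0.07). The shares over all genes were 49.5% and 47.9%. Hif1a, the oxygen-labile alpha subunit, had 82.3 and 73.9 TPM in Ahnak KO and 72.0 and 64.9 TPM in WT kidneys. Epas1, the alpha subunit of HIF-2, had 39.3 and 40.3 TPM against 43.1 and 38.1 TPM, and the beta subunit Arnt 47.2 and 36.3 TPM against 39.0 and 44.4 TPM. Of these only Arnt was highest in the libraries in which the members were high, by a narrow margin. Egln1, the main oxygen sensor among the hydroxylases and a HIF target, had 51.3 and 32.8 TPM in Ahnak KO and 37.4 and 53.7 TPM in WT, and was high in the same libraries as the members. Egln2 went the other way, with 52.9 and 62.6 TPM against 60.8 and 46.3 TPM. Chosen after their values were seen, Hif3a, a further alpha subunit, had 27.7 and 31.6 TPM in Ahnak KO and 11.4 and 29.2 TPM in WT, and was the list's gene past 2-fold between the WT replicates. Cited2, an inhibitor of HIF, had 87.3 and 67.7 TPM against 64.6 and 85.8 TPM, high where the members were high.

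Markers of cell types and of handling also differed between these libraries. The summed TPM of 10 proximal tubule markers was 797 and 563 in Ahnak KO replicates 1 and 2 and 604 and 738 in WT replicates 1 and 2, and none was at 0. The sum of 10 podocyte markers was 546 and 448 in Ahnak KO and 470 and 501 in WT, also with none at 0. The sum of 12 immediate early and stress genes was 836 and 413 in Ahnak KO and 536 and 770 in WT. Of the 12, 8 were higher in Ahnak KO replicate 1 than in replicate 2 (47.9% of all genes). Only 5 of 12 were higher in WT replicate 2 than in replicate 1 (49.5% of all genes). All 3 sums were higher in Ahnak KO replicate 1 and WT replicate 2, as the sum of the members was (2100 and 1555 TPM in Ahnak KO, 1352 and 2681 TPM in WT). The sum of 10 endothelial markers was 905 and 939 in Ahnak KO and 910 and 764 in WT. Xist also differed between the Ahnak KO replicates (176348 and 21 counts) but hardly between the WT replicates (26 and 24 counts). The part of cell makeup, handling and sex in the differences between replicates was not tested.

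In ureter, with 1 library per genotype and no replicate check, 9 of 10 members had less transcript in the library labelled Ahnak KO, as did 51.5% of genes, and Car9 was higher. Vegfa had 55.2 TPM in Ahnak KO and 172 TPM in WT, 2.71-fold lower by CPM. Slc2a1 had 27.0 and 88.8 TPM, 2.86-fold lower. Ankrd37 had 2.78 and 19.9 TPM, 4.92-fold lower, on 49 and 532 counts. These were the 3 members past 2-fold in the lower direction, where 5.76% of 16117 genes were. Car9 had 4.45 TPM (170 counts) against 1.84 TPM (107 counts), 2.37-fold higher, where 4.44% of genes were higher by more than 2-fold. On log2(FPKM + 1) and log2(TPM + 1) Car9 was within 2-fold (0.75 and 0.94), and on these scales and by library size alone Adm was past it (log2 ratios of -1.01, -1.02 and -1.03). Adm had 26.0 against 53.6 TPM (1.79-fold lower by TMM-scaled CPM) and Pdk1 29.4 against 51.8 TPM (1.54-fold lower). Bnip3 had 60.4 against 99.9 TPM, Egln3 20.3 against 31.8 TPM and Ldha 482 against 757 TPM, each between 1.37-fold and 1.45-fold lower. Pgk1 differed least, with 235 against 293 TPM (1.09-fold lower). The members therefore spread from -2.30 to 1.25 on the log2 scale with a median of -0.58, against -0.02 over all genes.

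The names of the count columns carry a pair of numbers whose meaning the labels and methods used here do not state. The ureter labelled Ahnak KO carried 2 and 3, as Ahnak KO kidney replicate 2 did, and the WT ureter carried 2 and 2, as WT kidney replicate 2 did. Ahnak KO over WT was below 0 both in ureter and among these kidney libraries for 9 of 10 members, all but Car9, where 31.1% of genes were below 0 in both. Among the kidney libraries numbered 1 the ratio was instead above 0 for 8 members (median log2 ratio 0.58), where 51.5% of genes were below 0. Ankrd37 had log2 ratios of -2.16 in kidney replicate 2 and -2.30 in ureter. Vegfa (-0.58 and -1.44) and Slc2a1 (-0.72 and -1.52) were farther apart in ureter, while Pdk1 (-1.10 and -0.63), Egln3 (-0.88 and -0.46) and Ldha (-0.86 and -0.46) were farther apart in kidney. Bnip3 had -0.80 and -0.53, Adm -0.70 and -0.84, and Pgk1 -0.44 and -0.13. Whether ureter and kidney libraries with the same numbers came from the same mice or litters is not stated, and genotype cannot be told apart from whatever else differed between the ureter libraries.

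**Figure D3:**
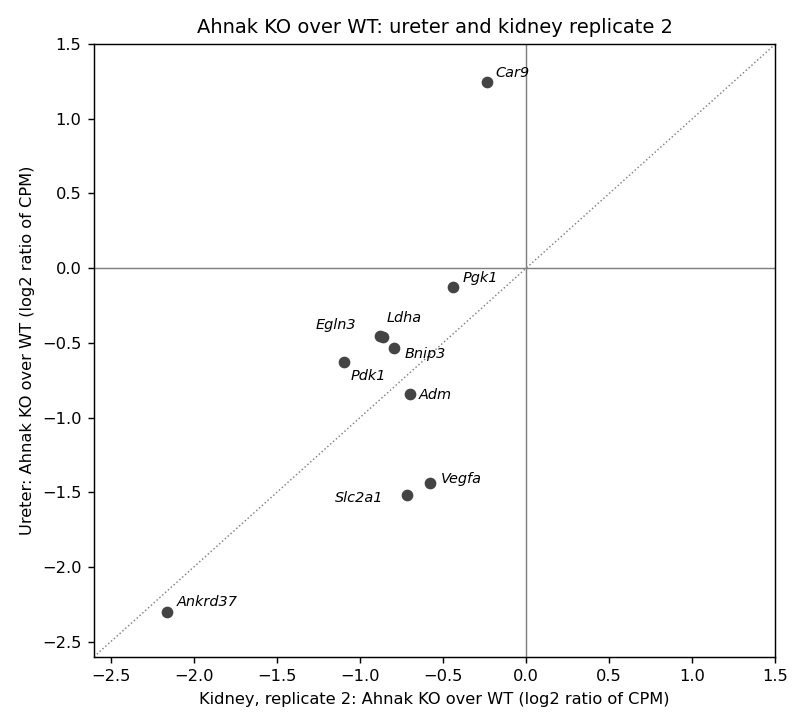
Log2 ratio of CPM, Ahnak KO over WT, for the kidney libraries numbered 2 (horizontal axis) and for the ureter libraries (vertical axis), 1 point per member, with the dotted line marking equal values. Of the 10 points, 9 lie below 0 on both axes and Car9 lies at -0.24 in kidney and 1.25 in ureter. The kidney libraries numbered 1 are not shown.

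The difference between the genotype effects of ureter and kidney was fitted in all 6 libraries, with the single ureter libraries assumed to vary like kidney libraries. It was -1.35 (SE 0.44) on the log2 scale for Vegfa, -1.50 (SE 0.62) for Slc2a1, -2.18 (SE 1.83) for Ankrd37 and 1.79 (SE 0.75) for Car9. For the other 6 members it lay between -0.56 and -0.06. By edgeR's quasi-likelihood test 0 of 10 members passed an adjusted p of 0.05, where 0.113% of 16873 genes did. At an unadjusted p under 0.05 there was 1 of 10, Vegfa. The Wald test of DESeq2 put 1 of 10, also Vegfa, past the adjusted threshold, where it put 2.94% of 16723 genes.

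Other values also differed between the ureter libraries, though not every list moved as a whole. The summed TPM of 21 striated muscle markers was 637 in the ureter labelled Ahnak KO and 1177 in the WT ureter. Of the 20 tested, 17 were lower in the former, as were 51.5% of all genes. All 12 immediate early and stress genes were lower in the ureter labelled Ahnak KO, with sums of 937 and 2190 TPM. The 9 red blood cell markers summed to 1472 and 3631 TPM, among which globin copies share reads. The 10 smooth muscle markers summed to 4620 and 6200 TPM, the 10 brown fat markers to 1331 and 773 TPM and the 10 endothelial markers to 471 and 552 TPM. By CPM 8 smooth muscle markers were lower and 2 higher (median log2 ratio -0.26). Of the brown fat markers tested 4 were lower and 5 higher (median 0.00), and of the endothelial markers 5 and 5 (median -0.03). The urothelium markers, at 10077 and 10186 TPM, were close. The part of these and of Rn45s in the ureter difference was not tested. The median of the members was -0.66 with Rn45s left out of the library size and -0.77 by library size alone, which moved the median of all genes from -0.02 to -0.20.

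Of 28 further glycolysis genes with enough counts in ureter, 24 had a lower level in the ureter labelled Ahnak KO, with a median log2 ratio of -0.39. Over all genes 51.5% were lower there. Past 2-fold were Slc16a3 (10.7 against 29.6 TPM), the neuronal enolase Eno2 (4.29 against 11.5 TPM) and the muscle phosphoglycerate mutase Pgam2, which was listed at 0 in the ureter labelled Ahnak KO and at 168 counts in WT. Of 37 further hypoxia targets, 22 were lower and 15 higher (median -0.28), with 7 lower and 3 higher by more than 2-fold. By that fold 5.76% of all genes were lower and 4.44% higher. Among those lower were Ddit4, an inhibitor of the growth kinase complex mTORC1, with 59.7 against 145 TPM, and P4ha1 with 24.2 against 70.3 TPM. Tfrc had 13.8 against 44.1 TPM and Narf 15.7 against 40.4 TPM. Higher were Hmox1 (111 against 28.1 TPM), Angptl4 (69.6 against 25.8 TPM) and Stc2, a secreted glycoprotein hormone (1.52 against 0.316 TPM, on 53 and 17 counts). Of 12 genes around pyruvate entry 8 were higher (median 0.10), and the 2 past 2-fold were Pdk4 (31.3 against 15.2 TPM) and Pdp1, the phosphatase that switches pyruvate dehydrogenase back on (11.5 against 6.07 TPM). The HIF machinery had 10 of 16 genes higher (median 0.12) and none past 2-fold. Hif1a had 85.5 against 72.7 TPM, Epas1 35.0 against 36.7 TPM and Arnt 29.2 against 39.0 TPM. Among the hydroxylases Egln1 had 29.3 against 48.6 TPM and Egln2 45.2 against 48.2 TPM. By CPM, on which the genes were counted, Epas1 (log2 ratio 0.12) and Egln2 (0.10) were slightly higher in the ureter labelled Ahnak KO. Of 15 genes of the VEGF and adrenomedullin axis (other ligands, receptors and receptor partners), 8 were lower and 7 higher (median -0.01), none past 2-fold. In kidney, 0 genes of these 5 lists passed the genotype test of edgeR, and their median log2 fold changes lay between -0.08 and 0.07.

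**Figure D4:**
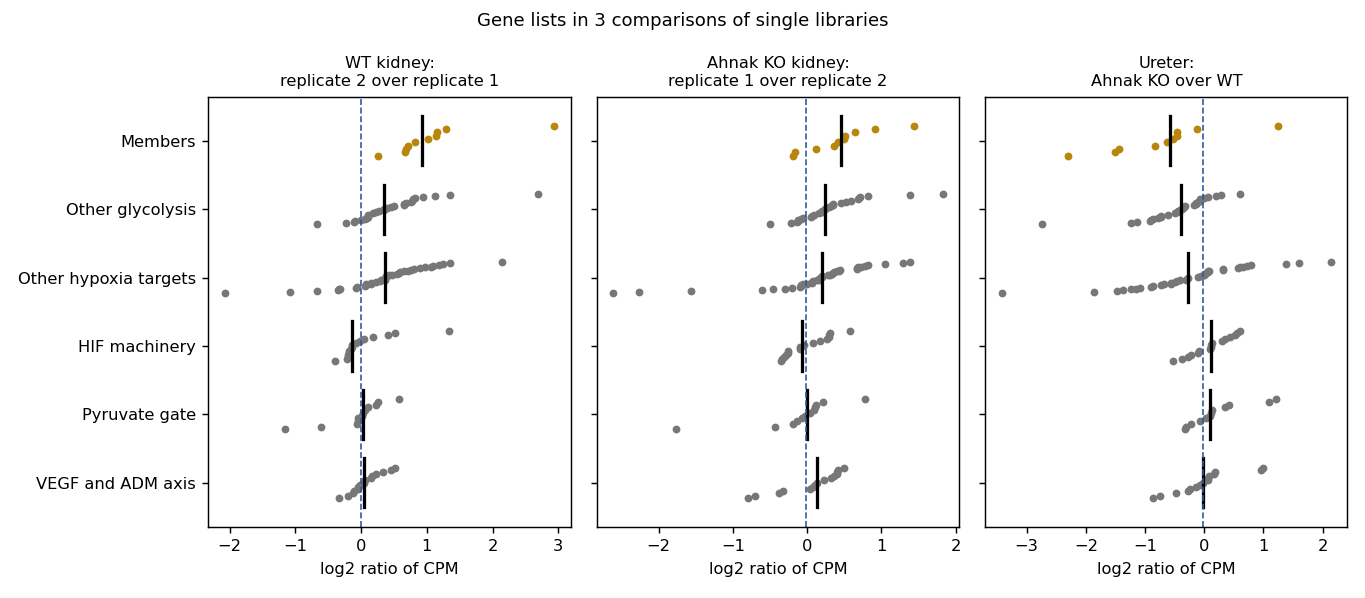
Log2 ratio of CPM for the 10 members and 5 lists of related genes (1 point per gene, stacked in order of value) between WT kidney replicates, between Ahnak KO kidney replicates and between ureter genotypes, with bars at the median of each list and a dashed line at the median of all genes tested. The members have medians of 0.92, 0.46 and -0.58, the glycolysis list 0.35, 0.23 and -0.39, and the HIF machinery -0.14, -0.07 and 0.12.

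Between tissues, Adm and Car9 were the members that were higher in ureter by more than 2-fold, as were 2537 of 16873 genes. Adm had 6.73 to 13.2 TPM in the 4 kidneys and 26.0 and 53.6 TPM in the ureters, with no overlap, and a log2 fold change of ureter over kidney of 2.49 (SE 0.23, edgeR on 6 libraries with genotype as a second term). Car9 had 0.529 to 0.878 TPM in the kidneys and 4.45 and 1.84 TPM in the ureters, again with no overlap, and a log2 fold change of 2.56 (SE 0.54). Pgk1 was lower in ureter, with 413 to 676 TPM in the kidneys and 235 and 293 TPM in the ureters and a log2 fold change of -0.62 (SE 0.20). The share of all genes without overlap between tissues was not counted. These 3 members passed an adjusted p of 0.05 in edgeR's quasi-likelihood test, where 45% of 16873 genes did, so that the share of the members was below that of all genes. Only Adm passed with the WT libraries alone or without the ureter labelled Ahnak KO. Pgk1 also failed to pass without Ahnak KO kidney replicate 1, Ahnak KO kidney replicate 2, WT kidney replicate 2 or the WT ureter. Car9 depended on the ureter library used, from 1.58 without the ureter labelled Ahnak KO to 3.37 without the WT ureter on the log2 scale.

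The other 7 members did not pass the test in all 6 libraries. Vegfa had a log2 fold change of -0.34 (SE 0.35) and Slc2a1 of -0.24 (SE 0.43), and both turned direction with the ureter library used. Without the ureter labelled Ahnak KO they were 0.28 and 0.45, and without the WT ureter -1.07 and -1.06. Vegfa passed without the WT ureter, and both passed with the Ahnak KO libraries only. Ankrd37 had -0.92 (SE 1.0), Ldha -0.24 (SE 0.31) and Bnip3 -0.12 (SE 0.35), while Pdk1 had 0.20 (SE 0.40, and -0.08 when scaled by library size alone) and Egln3 0.38 (SE 0.26). Between libraries with the same column numbers, WT ureter over WT kidney replicate 2 was within 0.05 of 0 on the log2 scale for Vegfa (0.00), Slc2a1 (0.04) and Pdk1 (-0.01). The same ratio in Ahnak KO was -0.85 for Vegfa, -0.75 for Slc2a1 and 0.47 for Pdk1.

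**Figure D5:**
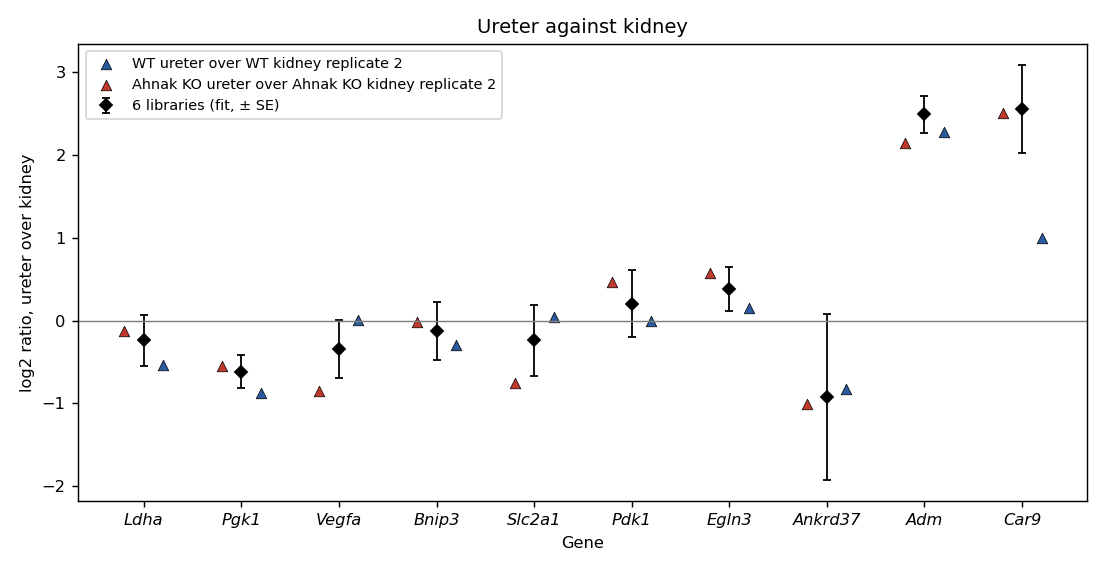
Log2 ratio of ureter over kidney for each member, from the fit to 6 libraries (diamonds, bars are ± SE) and between single libraries with the same column numbers for WT and Ahnak KO (triangles). Adm (2.49) and Car9 (2.56) stand above the other members, Pgk1 (-0.62) lies below 0, and the WT and Ahnak KO triangles of Vegfa and Slc2a1 lie apart.

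The wider pathway also differed between tissues by gene rather than as a block. In the HIF machinery Hif1a (log2 fold change 0.49) and Tceb2, the elongin B partner of the von Hippel-Lindau ubiquitin ligase (0.50), were higher in ureter, and Arnt2, a paralogue of Arnt, was lower (-4.13), with 22.9 to 29.1 TPM in kidney and 1.29 and 0.977 TPM in ureter. The other 13 of 16 genes did not pass edgeR's test, among them Epas1 (0.22), Arnt (0.08), Egln1 (0.18) and Egln2 (0.13). Scaled by library size alone, which moved the median of all genes from -0.08 to -0.36, 50.3% of genes passed, Hif1a (0.20) and Tceb2 (0.21) no longer did, and 4 of the 16 genes were lower and 0 higher. Of 29 glycolysis genes 6 were lower in ureter and 3 higher, where 45% of all genes passed in either direction, and by library size alone 8 were lower and 1 higher. Slc16a1, a lactate and pyruvate carrier, had a log2 fold change of -2.64. Eno1, the ubiquitous enolase, and Ldhb, the heart-type partner of Ldha, had log2 fold changes of -0.72 and -0.33. Slc16a7, another carrier of that family, was higher by 1.87. Of 37 hypoxia targets 8 were lower and 7 higher (9 and 3 by library size alone), from Car12, a second surface carbonic anhydrase, at -7.59 to the iron carrier Trf at 4.87. Car12 thus stood opposite to Car9, with 45.2 to 55.8 TPM in kidney and 0.194 and 0.219 TPM in ureter. Of the 12 pyruvate genes 3 were lower and 1 higher (6 and 0 by library size alone), among them the mitochondrial pyruvate carrier Mpc2 at -1.24. Among the 15 genes of the VEGF and adrenomedullin axis, 4 were lower and 4 higher (6 and 2 by library size alone). The adrenomedullin receptor partner Ramp3 was lower (-3.45) and Ramp1, which directs the same receptor to another peptide, higher (3.18), while the receptor Calcrl was lower (-0.70) and the Vegfa co-receptors Nrp1 (0.41) and Nrp2 (0.69) were higher. By library size alone Nrp1 (0.12) and Nrp2 (0.40) did not pass either. The medians of the 5 lists lay between -0.08 and 0.14, against -0.08 over all genes tested.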

How the data were processed

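Bulk RNA-seq of PN1 kidney and ureter was analysed from 1 deposited gene table. The table gives, for 24532 genes in each of 6 libraries, an estimated count as a whole number, made by the authors and not normalized. It also gives FPKM and TPM, which the authors scaled by transcript length and library size. According to the methods, TruSeq stranded mRNA libraries were read on a HiSeq2500, trimmed with Cutadapt, mapped with STAR and quantified with Cufflinks, and the genome named there is GRCm39. The submitters' processing notes instead list HISAT2 2.1.0, StringTie 1.3.4b, Trimmomatic 0.38 and mm10, and which of these made the table is not settled. How reads that map to several genes were counted is not given in the sources used here, which touches the globin copies. Gene numbers were used to restore 27 symbols that the table shows as dates.

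Counts were tested with edgeR 4.0.16 in R 4.3.3 (TMM, filterByExpr, quasi-likelihood test, Benjamini-Hochberg adjustment over all genes tested, threshold 0.05). Kidney genotypes were fitted in 4 libraries with 2 residual degrees of freedom, tissues in 6 libraries with genotype as a second term and 3 residual degrees of freedom, and the genotype difference between tissues in 6 libraries with 2. Each SE is approximate, taken as the size of the log2 value over the root of edgeR's F. Ratios of single libraries are log2 ratios of TMM-scaled CPM + 0.5 and have no test. In ureter, a gene needed 10 counts in 1 of the libraries, and a ratio beyond 2 in either direction counted as past 2-fold. The p-values measure only the spread between these libraries. The 10 members and all lists were chosen with earlier results of these data known, and named list genes are those called in a comparison or past 2-fold in ureter, at most the 4 with the highest mean TPM in each direction, with Hif1a, Epas1, Arnt, Egln1 and Egln2 in any case. A single gene that this rule names is not reported here. Promoter windows came from RefSeq GRCm38.p6. Alternatives used DESeq2 1.42.0, limma 3.58.1 on FPKM, other scalings, filters and pseudocounts, and each library left out. Epo did not pass the filters and Figf and Ahsp were not matched by symbol, while Elob and Eloc are listed as Tceb2 and Tceb1.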

Additional observations from a re-analysis of the deposited data

How the results depend on the processing

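Members called in kidney stayed at 0 under every alternative, including each library left out, but the count over all genes (2 lower, 0 higher) did not hold. DESeq2's Wald test called 21 lower and 25 higher. A minimum of 10 counts in every library left 1 lower, the fit of all 6 libraries 0, and limma on log2(FPKM + 1) or log2(FPKM + 0.1) 0 lower. Same-numbered kidney libraries tended to deviate in opposite directions (correlation -0.28 over 16481 genes). That value cannot settle whether the numbers pair them, and the meaning of the numbers is not stated. The replicate block gave 0 genes lower and a members' median of -0.04, and the crossed replicate block, chosen after seeing the data, 1 lower. With a library left out, 2 to 63 genes were called lower and 1 to 24 higher, both highest without Ahnak KO replicate 2, and the members' median ran from -0.56 to 0.42. The libraries numbered 1 alone, also chosen after seeing the data, gave a median of 0.58.

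Between tissues, 3992 genes lower and 3603 higher became 6108 and 2371 by library size alone and 2102 higher with limma. Of the members 1 was called with WT libraries only, 5 with Ahnak KO libraries only and 1 to 3 with a library left out. For the genotype difference between tissues, 10 genes lower and 9 higher became 288 and 204 with DESeq2, which called 1 member, and 2 to 113 lower and 2 to 145 higher with a library left out, where the members' median of -0.44 ran from -1.11 to -0.024. In ureter, 929 lower and 716 higher by more than 2-fold became 1633 and 1140 with a pseudocount of 0.1 CPM, 596 and 207 on log2(FPKM + 1), and 336 higher on log2(TPM + 1). The causes of these changes were not tested. Of the values for single members, 58 moved by more than the spread between kidney replicates and 349 did not. The single ureter libraries limit every ureter value to a comparison of those libraries.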
